A study of Homo sapiens with 9 samples.

Results

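The genes described here encode the 2 mTOR kinase complexes and the machinery that tells them about amino acids and growth factors, with their direct effectors. The list names 39 components of mTORC1, mTORC2, TSC, the Rag GTPases, Ragulator, GATOR1, GATOR2, KICSTOR, the folliculin complex, the amino acid sensors, the S6 kinases and the 4E-BP repressors. All 39 were found by symbol among the 58347 gene IDs of the read count table, and 37 had enough counts to be tested. RNA was sequenced from 9 libraries of K562-FIRE cells, derived from the K562 human erythroleukaemia line. All 9 carried the same stably expressed system: dCas9, which binds DNA at a guide without cutting it, MS2-Fkbp(1x), and SS18-Frb, each under the EF1a promoter. The guide was either an HBG1 promoter sgRNA or a non-targeting sgRNA, and the cells received DMSO or 10 nM rapamycin for 24 h. There were 3 libraries of the HBG1 promoter sgRNA with DMSO and 3 with rapamycin. The non-targeting sgRNA had 2 libraries with rapamycin, numbered 1 and 2, and 1 with DMSO, numbered 2. In this system rapamycin is the dimerizer that joins Fkbp to Frb and so brings SS18, a subunit of the BAF chromatin remodeller, to the guide. The study asked whether that recruitment activates HBG1.

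Rapamycin is also the drug after which mTOR is named. Bound to the immunophilin FKBP12, it docks on the FRB domain of mTOR, the same domain used in the SS18-Frb fusion, and blocks part of the activity of mTORC1, the complex built around RPTOR. The complex built around RICTOR, mTORC2, is not bound directly but can be lost on long exposure in some cells. Amino acids reach mTORC1 at the lysosome through the Rag GTPases, which Ragulator anchors, GATOR1 turns off and GATOR2 relieves. Growth factors reach it through RHEB, which the TSC complex turns off. Once active, mTORC1 phosphorylates the S6 kinases and the 4E-BP translation repressors. The values below are mRNA levels and say nothing of protein or phosphorylation.

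Libraries held 19797409 to 31619671 counts, and levels are given as CPM, the TMM-scaled share of a library's counts. The erythroid marker list had 8 of 8 genes tested, with a summed level of 8067 to 13903 CPM in the HBG1 sgRNA DMSO libraries, 8782 to 16126 CPM in the HBG1 sgRNA rapamycin libraries and 3499 to 4515 CPM in the non-targeting libraries. Without HBE1, the embryonic globin gene, the other 7 summed to 1371 to 1583 CPM with the HBG1 sgRNA and to 1384 to 1536 CPM with the non-targeting sgRNA. HBE1 itself was higher with the HBG1 sgRNA than with the non-targeting sgRNA under rapamycin (log2 1.89, adjusted p = 0.0122, edgeR quasi-likelihood test). A like difference was present with DMSO, at 6597 to 12320 CPM against 2030 CPM in the 1 non-targeting library (log2 2.12, no test). The rapamycin change of HBE1 with the HBG1 sgRNA was log2 0.17 (adjusted p = 0.723, edgeR quasi-likelihood test). A list of markers of other cell types had 5 of 10 genes tested, with 53.8 to 74.8 CPM in all and KRT5 at 0 in every library. Of the erythroid markers GATA1 rose with rapamycin under the HBG1 sgRNA (log2 0.31) and TFRC fell (log2 -0.28); of the other markers 0 of 5 were called by edgeR, 1 having an unadjusted p under 0.05. With the replicate pairs as a block, HBE1 and LMO2 were also called higher, as was COL1A2 of the other markers (log2 0.55, adjusted p = 0.00922). The part of either list in the results was not tested. Within the HBG1 sgRNA groups the libraries of replicate 1 stood apart: the chi-square statistic per gene against their group's other libraries was at most 16.8 and at least 14.99, and 4.58 to 7.38 for the remaining HBG1 sgRNA pairs. Results are therefore also given without that pair of libraries. The labels do not say that replicates were separate cultures, so p-values measure the spread between these libraries, which may be technical.

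Promoter sequence was available from RefSeq (GRCh38.p14) for 32 of the 39 genes, as 42 windows. The 4 genes called in the rapamycin test below are shown first, by the 120 bases before the RefSeq start site of each, 5′ to 3′ on the gene's strand. Capitals mark CCAAT (the CCAAT box, here as its reverse complement) and GGGCGG (the GC box).

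RICTOR: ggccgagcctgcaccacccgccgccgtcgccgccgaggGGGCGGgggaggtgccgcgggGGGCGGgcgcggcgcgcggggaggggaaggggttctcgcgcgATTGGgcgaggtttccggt

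NPRL3: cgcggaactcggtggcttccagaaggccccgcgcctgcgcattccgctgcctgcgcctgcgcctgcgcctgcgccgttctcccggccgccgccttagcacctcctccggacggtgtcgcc

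FLCN: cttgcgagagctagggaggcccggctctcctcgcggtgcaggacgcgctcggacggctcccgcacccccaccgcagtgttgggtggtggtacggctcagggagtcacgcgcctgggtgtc

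SEH1L: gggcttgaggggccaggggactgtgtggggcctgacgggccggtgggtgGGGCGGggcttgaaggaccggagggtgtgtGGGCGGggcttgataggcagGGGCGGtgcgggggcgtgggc

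These windows lie at chr5:39074400-39074519 (minus strand), chr16:138674-138793 (minus), chr17:17237169-17237288 (minus) and chr18:12947891-12948010 (plus). The gene spans given below are from GENCODE 29, whose outermost starts differ from those of RefSeq. The NPRL3 and SEH1L windows lie inside those spans, and the RICTOR and FLCN windows overlap their edge. Within these 120 bases no layout of these letters was common to both genes that rose or to both that fell. RICTOR and SEH1L held GC boxes in this stretch, and NPRL3 and FLCN held neither motif. In the longer search that follows FLCN also held GGGCGG, so both genes that fell had it, as did RICTOR. Searched over the 250 bases before each start on both strands, GGGCGG was in 69.0% of the 42 windows and in 42.639% of all 35116 promoter windows of that length. CCAAT was in 31.0% and 32.008%. CACGTG, the E-box read by TFEB, TFE3 and other basic helix-loop-helix factors, was in 7 of the 42 windows (16.7%) against 6.345% of all promoters. It is shown because the folliculin complex, RRAGC and RRAGD govern TFEB and TFE3, for which lysosomal and Rag genes are known targets. Windows of 4 of the 7 genes follow, with CACGTG in capitals.

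RRAGC: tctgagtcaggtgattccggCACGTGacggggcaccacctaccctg

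LAMTOR1: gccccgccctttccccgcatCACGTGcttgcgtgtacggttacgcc

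TSC2: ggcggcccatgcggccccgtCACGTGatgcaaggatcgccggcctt

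RRAGB: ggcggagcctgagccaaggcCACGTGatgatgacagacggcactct

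They lie at chr1:38859859-38859904 (minus strand), chr11:72103437-72103482 (minus), chr16:2047851-2047896 (plus) and chrX:55717614-55717659 (plus). The TSC2 window is inside the GENCODE 29 span of its gene, which begins at 2047465. The others with the motif were FNIP1, LAMTOR4 and PRR5. The 7 genes had log2 fold changes with rapamycin of -0.15 to 0.11, and 0 of 7 were called, with or without the replicate block. The TSC2 window was also the 1 member window with TGATGCAA, the C/EBP-ATF composite element, which overlaps the end of its CACGTG; 0.772% of all promoters hold it. GTAAACA, the forkhead motif, was in 0 of the 42 windows and in 2.979% of all promoters. CCGGAAG, the ETS motif, was in 8 windows (19.0%) and in 8.517% of all. A match is a string of letters and not a measured site.

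Levels of different genes were compared per length of exon (RPKM, mean ± SD over all 9 libraries). The most abundant was EIF4EBP1, a repressor of cap-dependent initiation, at 55.1 ± 9.08 (SD, n = 9), above every library of the next gene, RHEB, at 35.1 ± 1.96. EIF4EBP2 followed at 31.3, then the Ragulator subunits LAMTOR4 at 29.1 and LAMTOR5 at 27.8. MTOR itself stood sixth, at 20.8 ± 3.17. From RHEB down to RPS6KB2, at 14.6, each neighbour in the order overlapped the next between libraries. The same held from MAPKAP1, an mTORC2 subunit, at 11.5 down to TSC1, at 1.63. At the bottom stood DEPDC5 at 0.531, CASTOR1 at 0.306, DEPTOR at 0.0399 and RRAGD at 0.0219.

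**Figure D1:**
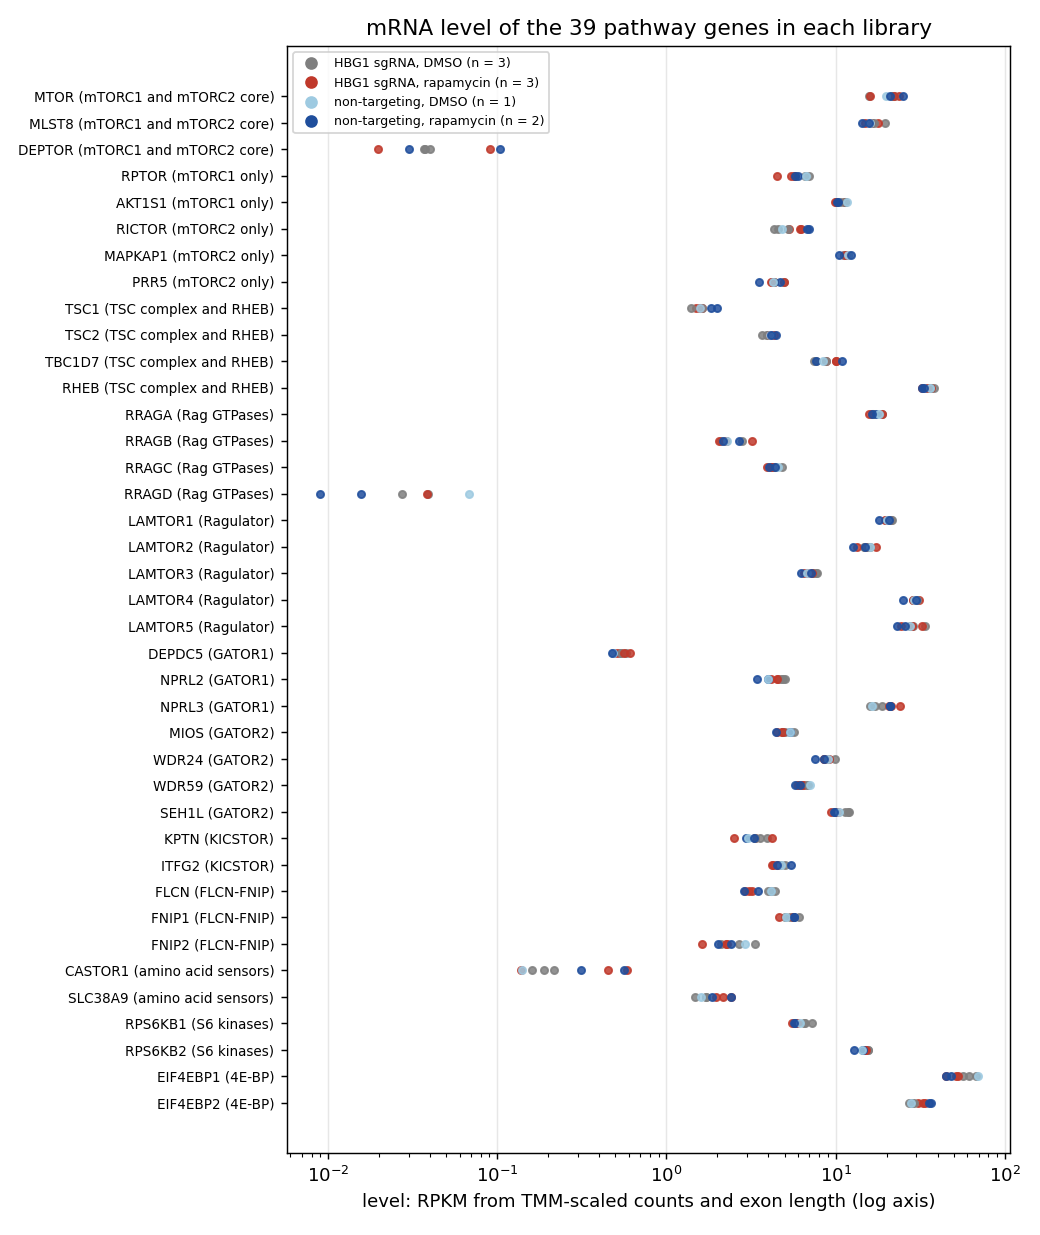
Level of each of the 39 genes in each library, as RPKM on a log axis, grouped by complex; each point is a library and colours give guide and treatment. Libraries with 0 counts (2 for DEPTOR, 3 for RRAGD) are not drawn, and EIF4EBP1 lies furthest to the right with DEPTOR and RRAGD below 0.2 RPKM in every library.

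Subunits of 1 complex were not at 1 level. In GATOR1, the GTPase activator for the Rag pair, NPRL3 was at 19.5 ± 2.64 RPKM, NPRL2 at 4.37 ± 0.513 and DEPDC5, which contacts the Rag GTPases, at 0.531 ± 0.0467, with no library of 1 gene overlapping another. Among the Rag GTPases, RRAGA exceeded RRAGB by 4.93 to 8.30 times within each library, and RRAGC was at 4.31 RPKM. RRAGD, the other partner for RRAGA and RRAGB, had 0 to 8 counts in a library, and DEPTOR, the endogenous inhibitor of both mTOR complexes, had 0 to 6. With 3 counts as the limit that a count of 0 allows, a library at 0 could hold up to 0.0949 to 0.152 CPM depending on its total. These 2 genes did not pass the low-count filter and are not in the tests below; without that filter neither was called. TSC2 was at least 2.06 times TSC1 in each library, and RPS6KB2 2.01 to 2.66 times RPS6KB1. RPKM uses all annotated exons of a gene, so a gene mostly expressed as a short isoform is understated.

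The first comparison asked what rapamycin did to these transcripts in cells with the HBG1 promoter sgRNA. RICTOR and NPRL3 rose, FLCN and SEH1L fell, and the kinase gene MTOR was not called. The 4 calls were 10.8% of the 37 members tested, by the quasi-likelihood test of edgeR with p-values adjusted after Benjamini-Hochberg over 23675 genes, in which 6.8% of all genes were called, 2.75% higher and 4.05% lower. The members' share is a few genes away from that background and is not a result about the list as a whole. At an unadjusted p under 0.05 there were 11 members (29.7%), beside 20.8% of all genes. The fold changes were small: the median log2 change of the 37 was -0.06, with 12 positive and 25 negative, beside 0.02 for all genes tested. In bulk RNA a lower level per cell and fewer cells that express a gene cannot be told apart.

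Replicate numbers paired the HBG1 sgRNA libraries. With the pair as a block, 11 of 37 members were called (29.7%), where 17.1% of 20179 genes were. Those higher were RICTOR, NPRL3, TBC1D7, SLC38A9 and EIF4EBP2 (5 members, 13.5%, beside 7.43% of all genes). Those lower were FLCN, SEH1L, RPTOR, FNIP2, RPS6KB1 and EIF4EBP1 (6 members, 16.2%, beside 9.62% of all genes). All 11 had the same sign in the non-targeting libraries, a comparison of 2 libraries with 1 that has no test. The share of all called genes with the same sign was not taken, so this is not a result about the members. Without either library of pair 1, 7 members were called (18.9%, where 9.09% of all genes were): RICTOR, NPRL3 and EIF4EBP2 higher, and FLCN, SEH1L, RPTOR and FNIP2 lower.

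Among the 6 HBG1 sgRNA libraries, those with rapamycin lay entirely above those with DMSO for 5 members (13.5%; 12.2% of all genes): RICTOR, NPRL3, TSC2, SLC38A9 and EIF4EBP2. They lay entirely below for 9 (24.3%; 13.1% of all genes): RPTOR, RRAGC, LAMTOR3, NPRL2, SEH1L, ITFG2, FLCN, RPS6KB1 and EIF4EBP1. The values for the other 23 overlapped. The plot of fold changes by gene shows the members in order.

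**Figure D2:**
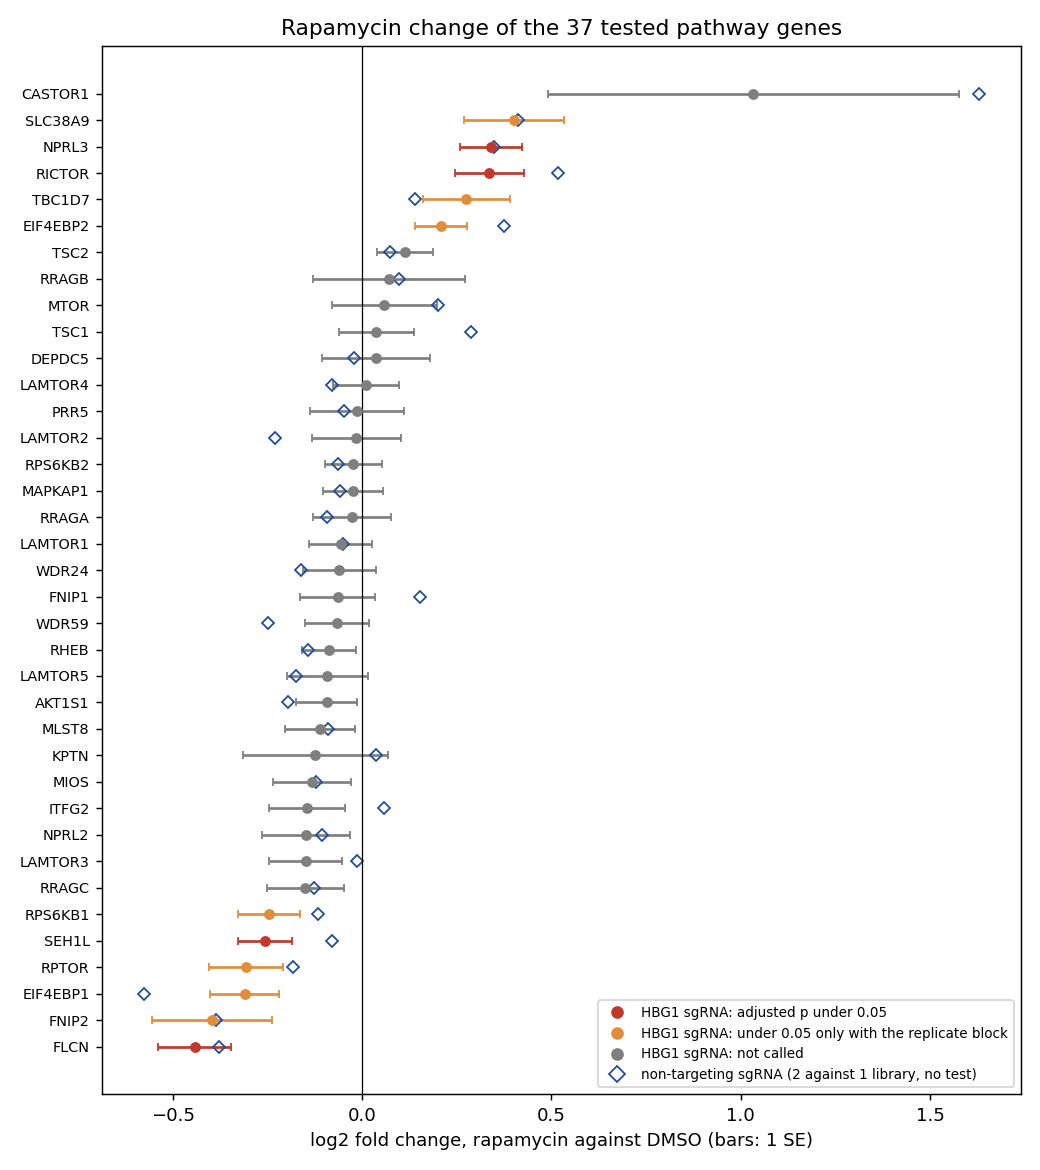
Log2 fold change of rapamycin against DMSO for the 37 tested genes, with the HBG1 sgRNA as filled points (bars: 1 SE; n = 3 against 3) and the non-targeting sgRNA as open diamonds (2 libraries against 1). Red points are the 4 called genes, orange points the 7 that were added by the replicate block, and CASTOR1 has both the largest change and the widest bar.

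The shared core came first. MTOR, the kinase, was at 189.74, 261.72 and 268.27 CPM in DMSO replicates 1 to 3 of the HBG1 sgRNA and at 192.61, 287.44 and 269.04 CPM in the rapamycin replicates. Both libraries of replicate 1 were low and the groups overlapped. Its log2 fold change was 0.06 (95% interval -0.23 to 0.35; SE 0.14; adjusted p = 0.857, edgeR quasi-likelihood test), and the adjusted p with the block was 0.520. The interval leaves room for a modest change in either direction. In the non-targeting libraries MTOR was at 242.00 CPM with DMSO and at 301.12 and 255.46 CPM with rapamycin. The Frb part of SS18-Frb is mTOR sequence, so reads of that fusion may be among these counts. MLST8, the other shared subunit, had a log2 change of -0.11 (SE 0.09), and DEPTOR, at 0.00 to 0.27 CPM in all 9 libraries, was not tested.

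The scaffolds that define each complex differed in sign. RICTOR, which makes mTORC2, was at 58.35, 70.81 and 61.83 CPM with DMSO and at 72.31, 85.12 and 83.67 CPM with rapamycin. The groups did not overlap, though the lowest rapamycin library, replicate 1, stood close to the highest DMSO library. The means were 63.7 ± 6.43 and 80.4 ± 7.02 CPM (SD, n = 3 each), a 1.26-fold rise (log2 0.34 with SE 0.09; adjusted p = 0.0340, edgeR quasi-likelihood test). In the non-targeting libraries it was at 65.06 CPM with DMSO and at 94.40 and 92.08 CPM with rapamycin. RICTOR (chromosome 5, 38937919 to 39074408, minus strand, GRCh38) shares 229 exonic bases, 1.69% of its own, with OSMR on the opposite strand, which rose by 0.87 on the log2 scale (adjusted p = 0.00654), and the counting strand is not given in the sources used here. The call was lost on leaving out any 1 of 6 libraries (HBG1 sgRNA DMSO replicate 1 or 3, HBG1 sgRNA rapamycin replicate 2 or 3, or either non-targeting rapamycin library), with an adjusted p of 0.0534 to 0.133.

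RPTOR, the scaffold that presents substrates to mTORC1, had a change of the opposite sign. It was at 59.39, 68.06 and 71.77 CPM with DMSO and at 46.50, 58.38 and 56.03 CPM with rapamycin, without overlap and lower in 3 of 3 pairs. The means were 66.4 ± 6.35 and 53.6 ± 6.29 CPM, with a log2 fold change of -0.31 (SE 0.10). It was not called by the edgeR test (adjusted p = 0.0743). It was called with the replicate block (-0.30, adjusted p = 0.00506), with DESeq2 (0.0426), without HBG1 sgRNA DMSO replicate 1 (0.0320) and without pair 1 (0.0377). It was uncalled in 10 of 16 alternatives, with an adjusted p of up to 0.272 in edgeR fits without 1 library. With the non-targeting sgRNA it was at 68.58 CPM with DMSO and at 61.65 and 59.25 CPM with rapamycin. The remaining subunits of either complex were not called in either fit: AKT1S1, the mTORC1 inhibitor PRAS40, had a log2 change of -0.09, MAPKAP1 (SIN1) -0.02 and PRR5 (protor) -0.01.

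The ratio of the scaffolds was also taken within each library. RICTOR over RPTOR, each per exon length, was 0.747, 0.791 and 0.655 in the HBG1 sgRNA DMSO libraries and 0.721 in the non-targeting DMSO library. It was 1.18, 1.11 and 1.14 in the HBG1 sgRNA rapamycin libraries and 1.16 and 1.18 with the non-targeting sgRNA. All 5 rapamycin libraries lay above all 4 DMSO libraries. This is 1 of 7 ratios that were chosen after values were seen, and it has no test. Among the other ratios, EIF4EBP2 over EIF4EBP1 separated the treatments and the remaining 5 overlapped. In both separated ratios the 2 genes had changes of opposite sign, without overlap in the HBG1 sgRNA libraries. The separation there follows from those changes and adds no further evidence.

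**Figure D3:**
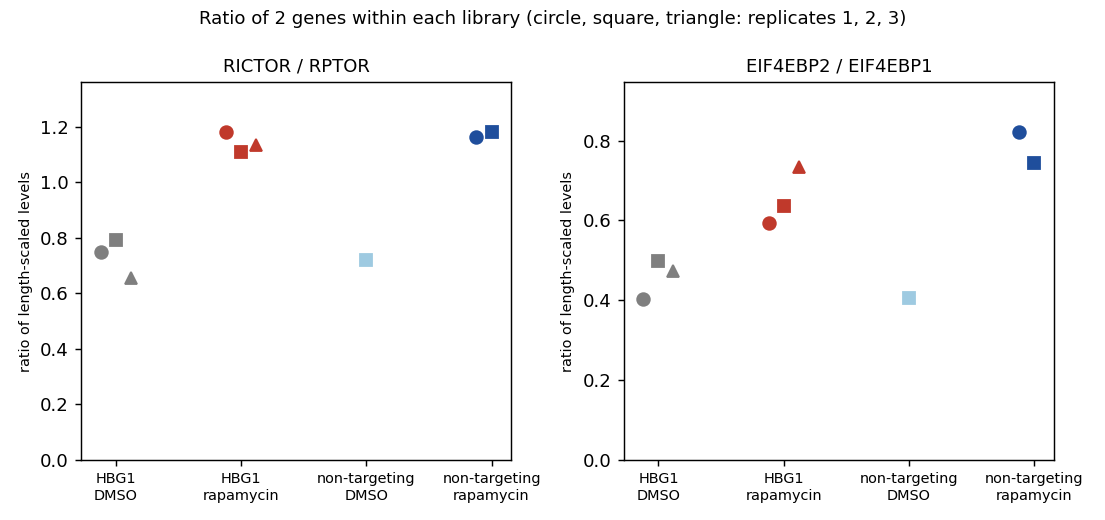
Ratio of RICTOR to RPTOR (left) and of EIF4EBP2 to EIF4EBP1 (right) within each library, from levels per exon length; each point is a library and its shape the replicate number. In both panels every rapamycin library lies above every DMSO library, for either guide. Both ratios were chosen after values were seen and have no test.

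The GATOR1 and GATOR2 genes followed. NPRL3, a GATOR1 subunit whose introns hold enhancers of the neighbouring alpha-globin genes, was at 124.06, 105.23 and 112.69 CPM with DMSO and at 157.88, 139.47 and 135.93 CPM with rapamycin. Every rapamycin library was above every DMSO library. The means were 114 ± 9.49 and 144 ± 11.8 CPM, a 1.27-fold rise (log2 0.34, SE 0.08, adjusted p = 0.0200, edgeR quasi-likelihood test). In the non-targeting libraries it was at 108.82 CPM with DMSO and at 139.00 and 137.96 CPM with rapamycin, a log2 change of 0.35. The other GATOR1 genes were not called: NPRL2 had a log2 change of -0.15 and DEPDC5 of 0.04. NPRL3 (chromosome 16, 84271 to 138860, minus strand) shares 6.85% of its exonic bases with MPG on the opposite strand, whose log2 change was 0.15 (adjusted p = 0.397). The call was lost without HBG1 sgRNA DMSO replicate 2 or 3 (adjusted p of 0.0791 to 0.119).

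SEH1L, a GATOR2 subunit that is also a nuclear pore protein, was at 126.23, 124.42 and 118.54 CPM with DMSO and at 107.56, 98.43 and 103.29 CPM with rapamycin. The groups did not overlap, and the spread within each was small. Means of 123 ± 4.02 and 103 ± 4.57 CPM gave -0.26 on the log2 scale (SE 0.07; adjusted p = 0.0406, edgeR quasi-likelihood test). The non-targeting libraries differed less, at 109.00 CPM with DMSO and at 103.72 and 102.54 CPM with rapamycin, a log2 change of -0.08. The difference between the guides in this change was -0.18 and was not called (edgeR interaction test, adjusted p = 1.00). MIOS, WDR24 and WDR59, the remaining GATOR2 genes, had log2 changes of -0.13, -0.06 and -0.07 and were not called. SEH1L lay closest to the threshold among the 4 called members: its call was lost without a low-count filter (adjusted p = 0.0508), in a fit of the 6 HBG1 sgRNA libraries alone (0.0586), and without any 1 of 7 libraries (0.0626 to 0.144), the exceptions being HBG1 sgRNA rapamycin replicate 1 and the non-targeting DMSO library. SEH1L lies on chromosome 18, 12947133 to 12987536, plus strand.

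FLCN, folliculin, had the largest change of the called members. Together with FNIP1 or FNIP2 it activates the GTPase of RRAGC and RRAGD. It was at 39.04, 40.42 and 42.65 CPM with DMSO and at 28.54, 31.35 and 29.91 CPM with rapamycin. The groups were well apart, and each pair fell. The means were 40.7 ± 1.82 and 29.9 ± 1.41 CPM, so the rapamycin level was 0.736 of the DMSO level (log2 -0.44, SE 0.10, adjusted p = 0.0122, edgeR quasi-likelihood test). In the non-targeting libraries it was at 40.50 CPM with DMSO and at 28.26 and 34.10 CPM with rapamycin, a log2 change of -0.38.

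Of the partners of FLCN, FNIP2 had the larger change and FNIP1 had no steady sign. FNIP2 had means of 29.5 ± 6.73 and 22.2 ± 4.02 CPM and a log2 change of -0.40 (SE 0.16). It was not called (adjusted p = 0.159, edgeR quasi-likelihood test) and was called with the replicate block (-0.39, adjusted p = 0.00854), being lower in 3 of 3 pairs. FNIP2 was called in 5 of 16 alternatives, the fit without pair 1 (0.0388) and that without HBG1 sgRNA DMSO replicate 1 (0.0347) among them. FNIP1, at -0.06, was not called in either fit. It was higher with rapamycin in 2 of 3 pairs, and its log2 change in the non-targeting libraries was 0.15. FLCN (chromosome 17, 17212212 to 17237188, minus strand) shares 1161 exonic bases, 11.86% of its own, with the same-strand gene AC055811.2, which also fell (log2 -0.56, adjusted p = 0.00516), so reads may be divided between them. The FLCN call was lost without HBG1 sgRNA DMSO replicate 2 or 3 or HBG1 sgRNA rapamycin replicate 3, with an adjusted p of 0.0504 to 0.0617.

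The tested Ragulator, Rag and KICSTOR genes were not called in either fit. Over Ragulator, the scaffold that holds the Rag GTPases on the lysosome, 0 of 5 genes were called and log2 changes ran from -0.15 to 0.01. Over the 3 tested Rag genes they ran from -0.15 to 0.07, with 0 called. KPTN and ITFG2, of the KICSTOR complex that ties GATOR1 to the lysosome, had log2 changes of -0.12 and -0.14. Among the amino acid sensors, SLC38A9, the lysosomal arginine transceptor, had means of 14.5 ± 1.24 and 19.1 ± 1.89 CPM and a log2 change of 0.40 (SE 0.13). It was not called (adjusted p = 0.0812, edgeR quasi-likelihood test). Of 16 alternatives 2 called it: the replicate block (0.41, adjusted p = 0.0250) and an additive model of guide and treatment (0.0155). CASTOR1, the cytosolic arginine sensor, had the largest log2 change of any member, 1.03, on 8 to 39 counts a library. Its SE was 0.54 and it was not called (adjusted p = 0.298). Its level ran from 0.39 to 0.59 CPM with DMSO and from 0.38 to 1.60 CPM with rapamycin over both guides, and 45.96% of its exonic bases belong also to the same-strand gene AC004997.1.

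On the growth factor side, RHEB, the GTPase that switches mTORC1 on, had a log2 change of -0.09 (SE 0.07), TSC1 of 0.04 and TSC2 of 0.11, and these were not called in either fit. TBC1D7, the third TSC subunit, had means of 66.1 ± 5.68 and 80.1 ± 6.58 CPM and a log2 change of 0.28 (SE 0.11). It was not called (adjusted p = 0.176, edgeR quasi-likelihood test). Of 16 alternatives 2 called it: the replicate block (0.28, adjusted p = 0.00839) and the fit without a low-count filter (0.0376). The DMSO and rapamycin groups of TBC1D7 overlapped across replicates but each pair was higher with rapamycin. TBC1D7 shares 6.84% of its exonic bases with the same-strand gene AL008729.1 (log2 0.42, adjusted p = 0.169, edgeR quasi-likelihood test). It shares 8.43% with PHACTR1 on the opposite strand (log2 0.04), so reads may be divided between these genes.

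Among the direct effectors, the paralogues differed in sign. EIF4EBP1 had means of 66.1 ± 5.75 CPM with DMSO and 53.5 ± 4.64 CPM with rapamycin, a log2 change of -0.31 (SE 0.09). EIF4EBP2, which has the same repressor role, had means of 204 ± 6.65 and 235 ± 11.6 CPM, a log2 change of 0.21 (SE 0.07). Neither was called by the edgeR test (adjusted p = 0.0540 and 0.0827), and both were with the replicate block (adjusted p = 0.0104 and 0.0118), with DESeq2 (0.0251 and 0.0324) and without HBG1 sgRNA rapamycin replicate 1 (0.0483 and 0.0371). Each was uncalled in 11 of 16 alternatives. Among these were 8 of the 9 edgeR fits without 1 library (adjusted p up to 0.222 and 0.208). The non-targeting log2 changes of EIF4EBP1 and EIF4EBP2 were -0.58 and 0.37. The ratio of EIF4EBP2 to EIF4EBP1 per exon length ran from 0.403 to 0.499 in the 4 DMSO libraries and from 0.594 to 0.823 in the 5 rapamycin libraries.

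Of the S6 kinases, RPS6KB1 had means of 52.2 ± 3.04 and 43.9 ± 1.52 CPM and a log2 change of -0.25 (SE 0.08). Its adjusted p was 0.0918 in the edgeR test and 0.0292 with the replicate block. RPS6KB2, at -0.02 (SE 0.08), was called in neither.

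**Figure D4:**
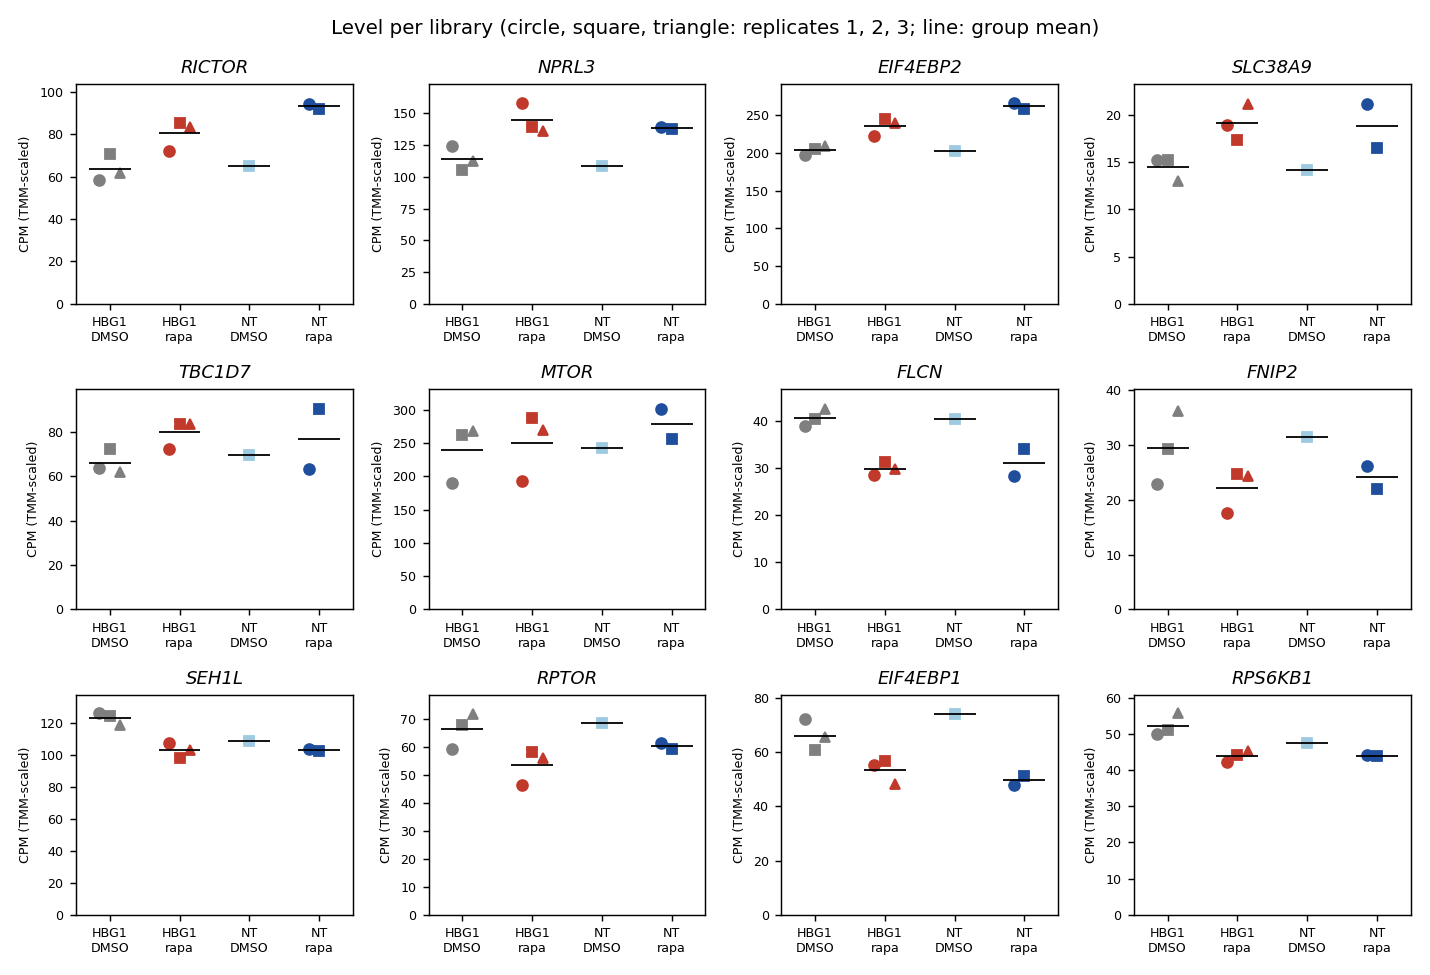
Level in CPM of the 11 genes called with the replicate block, and of MTOR, in each library; columns are the HBG1 sgRNA with DMSO and rapamycin and the non-targeting sgRNA (NT) with DMSO and rapamycin, and lines are group means. With the HBG1 sgRNA the DMSO and rapamycin groups are separated for all genes shown except MTOR, TBC1D7 and FNIP2, and replicate 1 (circles) is low in both treatments for MTOR.

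The 26 members called in neither fit had log2 changes from -0.15 to 0.11, CASTOR1 aside. Their 95% intervals, again without CASTOR1, reached from -0.53 (KPTN) to 0.50 (RRAGB), both genes with few counts. Others were narrower, such as -0.24 to 0.07 for RHEB and -0.18 to 0.14 for RPS6KB2. Changes that lie within a gene's own interval may have been missed with these libraries.

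The second comparison asked whether the guide mattered under rapamycin. HBG1 sgRNA and non-targeting libraries were compared at 3 against 2, with the same HBG1 sgRNA rapamycin libraries as above, and 0 of 37 members were called by edgeR's quasi-likelihood test (smallest adjusted p = 0.773). Of all genes tested 0.0296% were called, and DESeq2 called 0 members. At an unadjusted p under 0.05 there were 2 members (5.41%), beside 6.27% of all genes. Log2 differences of the members ran from -0.29 for TSC1 to 0.25 for NPRL2, with a median of 0.03. RICTOR differed by -0.21, NPRL3 by 0.06, FLCN by -0.06 and SEH1L by -0.000657.

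The third comparison asked whether the rapamycin change itself differed between guides. In the interaction test 0 of 37 members were called, 0 had an unadjusted p under 0.05, and DESeq2 called 0, beside 0.00422% of all genes called by edgeR. The interaction estimates ran from -0.60 for CASTOR1 to 0.27 for EIF4EBP1, with SEs of 0.12 to 1.02. This test rests on 1 non-targeting DMSO library and cannot show that the changes are alike. Taken alone, the non-targeting libraries had a member median of -0.06 and log2 changes of -0.58 to 1.63. The 2 members that rose with the HBG1 sgRNA were positive there and the 2 that fell were negative, again with no share over all called genes beside it.

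Genes next to these in the pathway, none of them among the 39 components, were taken from 4 lists, whose counts stand beside 2.75% higher and 4.05% lower among all genes (7.43% and 9.62% with the replicate block). Of 14 further subunits, partners and paralogues, 1 rose and 1 fell, or 3 and 3 with the block. They were EIF4EBP3, the third 4E-BP, which rose by 0.75 on the log2 scale (adjusted p = 0.0298, edgeR quasi-likelihood test; lost without pair 1, or without HBG1 sgRNA DMSO replicate 2 or 3 or rapamycin replicate 1 or 3, up to 0.139) and TTI2, of the chaperone complex that matures mTOR and related kinases, with -0.45 (adjusted p = 0.00573). FKBP1A, which encodes FKBP12, had a log2 change of -0.23 and was not called (adjusted p = 0.163, edgeR quasi-likelihood test), but was with the replicate block (0.0213) and without pair 1 (0.0318). Reads of MS2-Fkbp may be among its counts. The non-targeting log2 changes, which have no test, were 0.18 for EIF4EBP3, -0.33 for TTI2 and -0.02 for FKBP1A.

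Of the 14 tested genes among 18 sensors and stress-linked brakes on mTORC1, 0 rose and 3 fell (1 higher and 3 lower with the replicate block). DDIT4 (REDD1), which acts through TSC, was at 78.4 to 117 CPM in the HBG1 sgRNA DMSO libraries and at 26.0 to 43.4 CPM with rapamycin (log2 -1.55, SE 0.17, adjusted p = 0.000132, edgeR quasi-likelihood test). SESN2, the leucine sensor that binds GATOR2, fell by 0.49 on the log2 scale (adjusted p = 0.0124) and ATF4, the stress factor upstream of both, by 0.37 (adjusted p = 0.0316). The non-targeting log2 changes of DDIT4, SESN2 and ATF4, which have no test, were -1.59, -0.48 and -0.48. The ATF4 call was lost without any 1 of 7 libraries (all but HBG1 sgRNA rapamycin replicate 1 and the non-targeting DMSO library; 0.0539 to 0.135) and in the fit of the 6 HBG1 sgRNA libraries alone, the SESN2 call without HBG1 sgRNA rapamycin replicate 3 (adjusted p = 0.0775), and the DDIT4 call in none of 16 alternatives.

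In the growth factor arm, 1 of 20 genes rose and 1 fell (2 higher and 2 lower with the replicate block). IGF1R, the receptor for insulin-like growth factor, rose by 0.58 on the log2 scale (adjusted p = 0.0383, edgeR quasi-likelihood test; lost in the fit of the 6 HBG1 sgRNA libraries alone, without pair 1 and without any 1 library but the non-targeting DMSO library, up to 0.120). GRB10, an adaptor that mTORC1 phosphorylates and that dampens insulin receptor signalling, fell by 0.45 (adjusted p = 0.00368). Among 20 downstream targets 5 rose and 1 fell, and with the replicate block 5 were higher and 5 lower. ULK1 and ATG13, of the kinase that starts autophagy, rose by 0.79 and 0.53, and PDCD4, a translation inhibitor that S6 kinase marks for destruction, rose by 0.77 (adjusted p = 7.23e-05, 0.000701 and 0.000132). The initiation scaffold EIF4G1 fell by 0.34 (adjusted p = 0.0231; lost without HBG1 sgRNA DMSO replicate 2 or 3 or rapamycin replicate 3, up to 0.125). The median log2 changes of the 4 lists were -0.03, -0.00224, -0.05 and -0.02 in this order, beside -0.06 for the 37 tested components and 0.02 for all genes. Without a test, the non-targeting log2 changes were 0.65 for IGF1R, -0.60 for GRB10 and 0.45 for ULK1. They were 0.53 for ATG13, 0.96 for PDCD4 and -0.29 for EIF4G1.

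**Figure D5:**
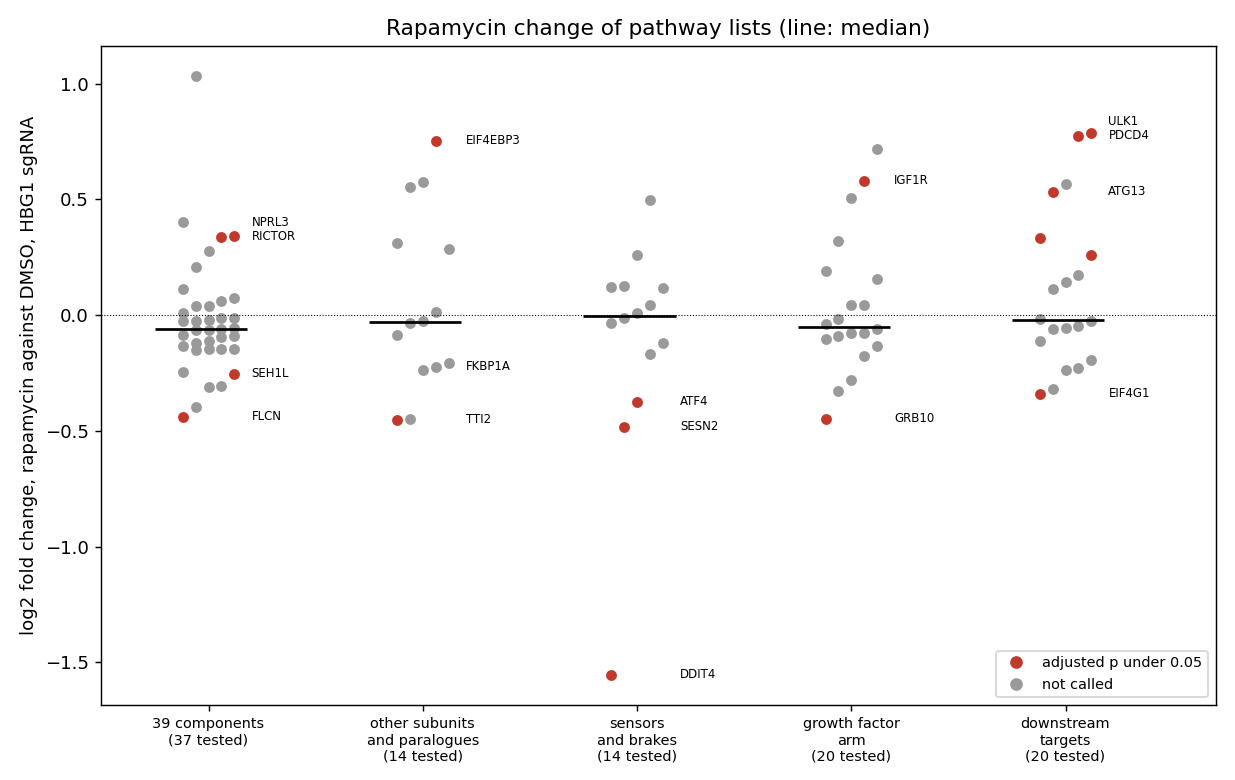
Log2 fold change of rapamycin against DMSO, HBG1 sgRNA, for the 37 tested components and for the tested genes of 4 further pathway lists; each point is a gene, red where called, and lines are medians. DDIT4 lies far below all others, and ULK1 and PDCD4 exceed every called component.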

How the data were processed

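Poly-T selected RNA was sequenced with a NEBNext Ultra kit, as the labels' protocols state. The authors deposited 1 table of raw read counts per Ensembl gene. STAR 2.7.3a, featureCounts, Subread 2.0.0, R 4.1.2, limma 3.34.9, edgeR 3.24.0 and GRCh38/hg38 are named in the submitters' processing notes; annotation release, strand and treatment of multimapped reads are not given in the sources used here. GENCODE 29 (GRCh38) gave symbols and positions for 58039 of 58347 IDs (99.47%), and its merged exons the lengths for RPKM.

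Counts were fitted with edgeR 4.0.16 in R 4.3.3: filterByExpr (minimum count 10; 23675 genes), TMM scaling (factors 0.977 to 1.02), 1 mean per group over 9 libraries, quasi-likelihood tests, Benjamini-Hochberg adjustment over all genes, called at 0.05. DESeq2 1.42.0, scaling by size factors, no filter, a replicate block, an additive model and leaving out each library were alternatives; leaving out pair 1 was chosen after seeing the data. The procedure was tested on simulated data without a replicate effect and with changes larger than those of the called members. That simulation does not cover replicate effects such as those seen here, or changes of the members' size.

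Replicate numbers came from the titles. With the HBG1 sgRNA, libraries of 1 number deviated together from their group means, with correlations of 0.553, 0.278 and 0.231 over 11498 genes, each above 0.1, so the numbers were taken as pairs. Replicates 2 and 3 were hardly told apart (0.258 and 0.194 when crossed), so the pairing rests mainly on replicate 1; between guides the correlations were -0.07 and -0.07 and no pairing was made. No replicate pair repeated 1 library (chi-square per gene 4.58 to 16.8).

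The members and lists were chosen with earlier results of these data known. Values per library are given for members called in any test and for MTOR, RPTOR, RICTOR and DEPTOR; members whose call changed with the block are given by group means. From the other lists DDIT4, FKBP1A and SESN2 are named, with up to 3 called genes per list and direction of largest change at a mean log2 CPM of at least 1. Motifs and ratios were chosen after values were seen.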

Additional observations from a re-analysis of the deposited data

How the results depend on the processing

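With the HBG1 sgRNA, 4 members were called. That count was 7 without a low-count filter, 7 with DESeq2, 11 with the replicate block, 9 in the additive model and 7 without pair 1 (chosen after seeing the data); leaving out 1 library gave 0 to 6, with 0 without HBG1 sgRNA DMSO replicate 3. Calls over all genes, 1609 of 23675, became 2156 of 38129 without a low-count filter and 2147 of 23675 with DESeq2. They became 3441 of 20179 with the block, 3263 of 23675 in the additive model and 2110 of 23211 without pair 1. Leaving out 1 library gave 664 to 1731. Members tested were 39 without the filter and 37 otherwise. The background thus moved with the setting as well, and the change in member calls is not a result about the list. The members' median, -0.06, was -0.0523 with the 6 HBG1 sgRNA libraries alone, -0.0503 with the block, -0.0749 in the additive model and -0.0824 to -0.0355 on leaving out 1 library. The other lists' 13 calls became 24 with the block, 24 in the additive model and 7 to 13 on leaving out 1 library. The non-targeting median was -0.0666 with DESeq2 size factors, -0.0669 without a filter, -0.0664 with DESeq2 and -0.0744 with a block within each guide; leaving out 1 rapamycin library gave -0.0744 and -0.0718. Guide and interaction tests called 0 members in every alternative run; over all genes the guide test's 7 calls became 91 without a filter, 13 with DESeq2, 11 with the block, 37 without pair 1 and 3 to 8 on leaving out 1 library, and the interaction test's 1 call 0 to 8 over its alternatives.

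Some members near 0 changed sign: LAMTOR4 (-0.0172) and FNIP1 (0.00169) in the additive model, and MAPKAP1 (0.000964), LAMTOR4 (-0.0316), WDR24 (0.0166) and RPS6KB2 (0.00326) without pair 1. On leaving out 1 library, log2 changes ranged over -0.084 to 0.215 for MTOR, -0.0889 to 0.0625 for PRR5, -0.144 to 0.199 for RRAGB, -0.195 to 0.00143 for LAMTOR5, -0.105 to 0.00486 for WDR24, -0.0271 to 0.0345 for LAMTOR4, -0.0256 to 0.0829 for TSC1, -0.114 to 0.0738 for LAMTOR2, -0.125 to 0.0167 for FNIP1, -0.104 to 0.034 for RRAGA, -0.0282 to 0.0987 for DEPDC5 and -0.325 to 0.0599 for KPTN. The cause of these moves was not tested. The interaction could not be fitted without the non-targeting DMSO library.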
